A study of Mus musculus with 2 samples.

Results

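Mouse genes with a Zfp symbol and number were examined here, as measured on 2 whole-transcript arrays of spleen cells from Fx-/- mice. The genes were those with exactly 1 gene symbol on the platform, a symbol of Zfp followed by a digit (all symbols that begin with Zfp36 left out), and a mean log2 intensity of 4 or more over both arrays. Of 361 such genes measured, 112 reached that mean and 249 did not, among 22180 genes in all. For each gene the probe set with the highest mean stood for the gene. The members were thus chosen by their intensity on both arrays, and the differences between the arrays were known when they were chosen, so all differences are given as a description with no test.

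Both arrays held RNA of mice with the Fx-/- genotype, which lack an enzyme of GDP-fucose synthesis and depend on supplied fucose for fucosylated glycans. The cells on 1 array came from fucose-treated mice and those on the other from mice with no fucose treatment, and no Fx-sufficient control was used here. Ages, sexes and the number of mice behind each sample are not given in the sources used here. Splenocytes were depleted with B220 and CD11b antibodies and then selected for CD11c, and were labelled cDC1, the dendritic cells that present antigen to cytotoxic T cells.

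Proteins of the classical zinc finger class read DNA through a row of small loops, each folded around a zinc ion that cysteine and histidine pairs hold. They are the largest class of transcription factors in mammals. Many also carry a KRAB domain, which binds the corepressor Trim28 and through it the histone methyltransferase Setdb1, and these proteins keep retroviral elements and other repeats silent. The family grew by repeated duplication of neighbouring genes, so many members lie in runs along a chromosome and resemble each other. A Zfp symbol is only a name, and some carriers are not transcription factors.

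The promoters of several members whose values were lower without fucose held a shared stretch just before the start of the gene. The 7 sequences below are the 120 bases before the start, 5′ to 3′ in the direction of the gene, from the RefSeq promoter table of build GRCm38.p6, and they are shown because Zfp84 had the largest difference of all members, Zfp358 has the stretch in the opposite direction, and the other 5 lie in a single run of neighbours on chromosome 13. Capitals mark a match to GGGNNNTGTAGT on either strand. The windows are chr7:29768432-29768551 (plus strand) for Zfp84, chr8:3493018-3493137 (plus strand) for Zfp358, chr13:67451625-67451744 (minus strand) for Zfp874a, chr13:67553153-67553272 (minus strand) for Zfp748, chr13:67399768-67399887 (minus strand) for Zfp429, chr13:67637782-67637901 (minus strand) for Zfp729a and chr13:67061171-67061290 (minus strand) for Zfp712.
Zfp84: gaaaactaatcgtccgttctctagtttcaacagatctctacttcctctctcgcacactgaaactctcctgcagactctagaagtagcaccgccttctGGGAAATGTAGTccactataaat
Zfp358: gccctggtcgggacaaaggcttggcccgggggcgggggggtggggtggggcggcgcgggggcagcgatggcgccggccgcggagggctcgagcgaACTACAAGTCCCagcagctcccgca
Zfp874a: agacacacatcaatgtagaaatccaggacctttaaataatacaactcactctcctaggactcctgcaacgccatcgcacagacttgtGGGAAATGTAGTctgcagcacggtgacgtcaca
Zfp748: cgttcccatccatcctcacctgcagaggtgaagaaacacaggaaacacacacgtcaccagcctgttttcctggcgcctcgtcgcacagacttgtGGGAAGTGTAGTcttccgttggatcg
Zfp429: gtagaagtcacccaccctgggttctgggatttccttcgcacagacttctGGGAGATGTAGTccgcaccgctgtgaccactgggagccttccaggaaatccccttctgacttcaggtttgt
Zfp729a: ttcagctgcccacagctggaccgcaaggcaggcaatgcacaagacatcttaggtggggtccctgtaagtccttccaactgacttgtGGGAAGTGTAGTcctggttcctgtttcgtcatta
Zfp712: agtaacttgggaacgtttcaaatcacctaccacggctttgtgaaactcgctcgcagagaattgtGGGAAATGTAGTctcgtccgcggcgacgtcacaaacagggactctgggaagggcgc

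The match began 23 bases before the start in Zfp84, 25 in Zfp358, 33 in Zfp874a, 26 in Zfp748, 71 in Zfp429, 34 in Zfp729a and 56 in Zfp712. In Zfp358 it lay on the opposite strand. The log2 differences of these genes, no fucose treatment minus fucose-treated, were -1.38, -0.86, -0.97, -0.67, -0.58, -0.50 and 0.34 in the same order. Zfp712 therefore carried the stretch and had a higher value without fucose.

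The make-up of the arrays bears on all values below. With 1 array per group, no difference has a replicate check, and the number of arrays limits the precision. T cell genes were bright on both arrays, and all 12 measured of 16 listed T cell markers had negative differences, with a median of -0.29 and a summed intensity of 13258 with fucose and 10820 without. The cDC1 markers Xcr1 (2.90 and 3.43), Itgax (3.83 and 3.86) and Zbtb46 (2.84 and 2.98) lay below the limit of 4 on both arrays, and Clec9a had no probe set of its own. Precursor markers were higher without fucose. Summed intensities went from 126 to 3005 over the 12 granulocyte precursor genes measured and from 376 to 1634 over the 11 erythroid genes. Among the granulocyte precursor genes, differences ranged from that of Elane (4.11 and 9.48) to that of Ltf (3.10 and 3.42). Counts past the limit are not given, because most genes of these lists that reached it did so only through the array without fucose. Of the 2 B cell markers past the limit, neither was 1.5-fold apart, with a median of -0.29, and the 9 measured summed to 145 and 123. The 5 cDC1 markers past the limit (Ppt1, Naaa, Irf8, Wdfy4 and Batf3) were at least 1.5-fold higher without fucose, against 4.92% of all genes past it. Among them Naaa had 5.97 and 8.36 and Irf8 had 4.18 and 6.68. Below the limit, Tlr3 went from 2.95 to 4.96. The 13 cDC1 markers measured summed to 351 and 897. Xist went from 8.26 to 2.82 and the Y-linked gene Uty from 2.14 to 5.26, so sex-linked genes separate the arrays as well. The part of the cell mixture and of sex in the results on Zfp genes was not tested, and in such samples fewer cells of a type and less RNA per cell cannot be told apart.

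Most expressed Zfp genes had lower values without fucose. Of the 112 genes, 88 (78.6%) had a negative difference, 20 a positive one and 4 (Zfp251, Zfp592, Zfp746 and Zfp777) exactly the same value on both arrays. Among all 6929 genes past the limit, 60.9% had a negative difference, and among other genes of like mean 59.8%. The median log2 intensity of the Zfp genes was 5.27 with fucose and 4.93 without. Their differences ran from -1.38 to 0.52 with a median of -0.22 and quartiles at -0.46 and -0.03, whereas the median of other genes of like mean was -0.08. Like mean was set by bins of 1 log2 unit, with the other genes weighted to the members' share of each bin.

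Members past a fold limit lay on the lower side alone on the deposited scale. At least 1.5-fold lower values were found for 16 of the 112 genes (14.3%), against 4.72% of all genes past the limit and 5.61% of other genes of like mean. None was at least 1.5-fold higher, against 4.92% of all genes and 6.27% of other genes of like mean. At 2-fold, 3 members were lower, against 0.635% of all genes, and none was higher, against 2.37%. The 16 were part of 327 genes at least 1.5-fold lower. Among them Zfp688 (4.76 and 3.58) and Zfp566 (4.67 and 3.97) passed the intensity limit only through the array with fucose. Zfp688 is also among the 3 at 2-fold. With the limit on the array without fucose alone, 14 of 104 members were at least 1.5-fold lower, against 3.75% of other genes. None was higher, against 6.68%. The direction depended on the scaling. Centring the differences on the T cell markers moved the median of the Zfp genes to 0.071, because that centring adds 0.29 to every difference. The counts became 5 lower and 5 higher of the 112 genes. Of other genes past the limit, 0.836% were then at least 1.5-fold lower and 12.04% at least 1.5-fold higher. The median of other genes of like mean then stood at 0.22, and centring cannot change the gap between the groups because it moves all genes alike. Quantile normalisation and loess shift genes of like intensity nearly alike, so they too could change this gap little. Over the 15 settings, the main one and 2 such centrings among them, the median of the Zfp genes stood below that of genes of like mean. The gap was between 0.10 and 0.15 log2 units.

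**Figure D1:**
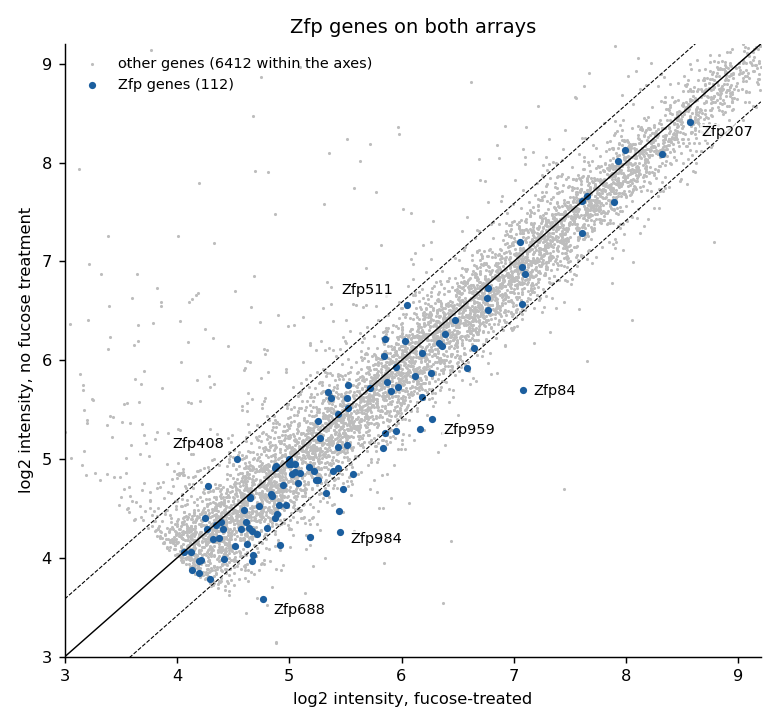
Log2 intensity of each gene with fucose (x axis) and without (y axis), Zfp genes in blue and other genes with a mean of 4 or more in grey, with lines of equality (solid) and of 1.5-fold difference (dashed). On the deposited scale 16 blue points lie below the lower dashed line and none above the upper one, while grey points lie beyond both. Centring on T cell genes would give 5 and 5 blue points, beside 0.836% and 12.04% of grey points.

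The shift was seen in the lower intensity ranges, which hold most members. At a mean of 4 to 5, 45 of 52 Zfp genes (86.5%) had a negative difference against 58.2% of 1753 other genes, with medians of -0.24 and -0.07. Members of this range such as Zfp688, Zfp566 and Zfp51 reached a mean of 4 only through the array with fucose. For such genes a negative difference was fixed by the limit. The lowest member value was 4.06 with fucose and 3.58 without, so no member entered through the other array alone. At 5 to 6 the medians were -0.25 for 33 Zfp genes and -0.10 for 1466 other genes, and at 6 to 7 they were -0.16 for 17 and -0.09 for 1386. The 7 Zfp genes at 7 to 8 had a median of 0.00, and the 3 at 8 or more had -0.16, beside -0.07 and -0.06 for other genes. All 16 genes at least 1.5-fold lower lay below a mean of 7, with 8, 6 and 2 in the 3 lowest ranges. Values near the array medians (2.81 and 2.82) understate a difference, so the 249 Zfp genes below the limit say less. Of these, 153 (61.4%) had a negative difference against 44.9% of 15002 other genes below it, 9 were at least 1.5-fold lower and 3 higher. Over all 361 Zfp genes measured the counts were 25 and 3, against 2.20% and 3.24% of all 21819 other genes measured.

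**Figure D2:**
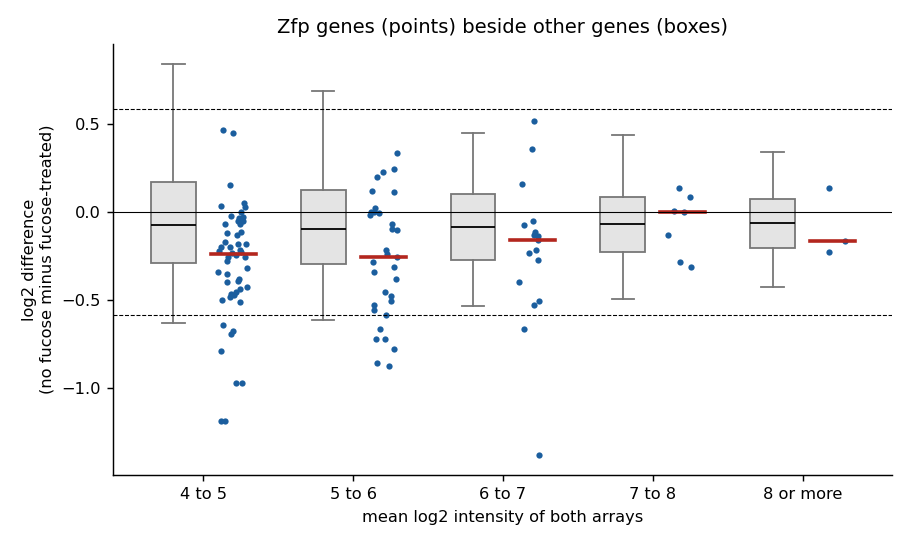
Log2 difference (no fucose minus fucose-treated) by mean log2 intensity for each Zfp gene (points, red line at the median) and for other genes (boxes from the lower to the upper quartile, whiskers from the 5th to the 95th percentile). The medians of the Zfp genes are -0.24, -0.25 and -0.16 in the 3 lowest ranges, below those of the other genes, and 0.00 at 7 to 8; centring on T cell genes adds 0.29 to every value.

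Zfp84 (probe set 17476175) had a log2 intensity of 7.08 with fucose and 5.70 without, a 2.60-fold lower value. Only 0.144% of the 1386 other genes with a mean of 6 to 7 had a more negative difference. Zfp984 went from 5.45 to 4.26 (2.28-fold lower) and Zfp688 from 4.76 to 3.58 (2.27-fold lower), and each was passed by 0.513% of other genes at a mean of 4 to 5. These 3 are the members at least 2-fold apart, and Zfp688 passed the intensity limit only through the array with fucose. Zfp874a followed with 5.18 and 4.21, and Zfp628, described in sperm development, with 5.45 and 4.47, both 1.96-fold lower.

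The next genes were lower by less than 2-fold. Zfp959 went from 6.27 to 5.40 and Zfp358 from 6.16 to 5.31. Zfp418 had 4.91 and 4.13, and Zfp319 had 5.47 and 4.70. The differences of Zfp719 and Zfp740 were both -0.72, and that of Zfp566 was -0.69. Zfp748 (-0.67), Zfp871 (-0.67) and Zfp955b (-0.66) complete the 15 largest negative differences, and Zfp729b (-0.64) is the last of the 16 genes past 1.5-fold.

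On the positive side Zfp511 was highest, with 6.05 and 6.56, 1.43-fold higher without fucose. Zfp408 was 0.47 above its level of 4.54 with fucose, and Zfp410 went from 4.28 to 4.73. Zfp410 is known as an activator that acts almost wholly through Chd4, a subunit of the NuRD remodelling complex, and Chd4 itself had 8.37 and 8.18. The next were Zfp414 (0.36), Zfp712 (0.34), Zfp655 (0.25), Zfp609 (0.23), Zfp131 (0.20), Zfp110 (0.16) and Zfp787 (0.16). None of these reached 1.5-fold, and 4.26% of other genes at a mean of 6 to 7 exceeded the difference of Zfp511.

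The 5 members with the highest mean had differences from -0.28 to 0.14, and 3 were negative. Zfp207, a spindle protein that loads the checkpoint protein Bub3 onto chromosomes, had the highest mean of all members, with 8.57 and 8.41. Zfp652 had 8.32 and 8.09, and Zfp706 had 7.99 and 8.13. Zfp622, which matures the large ribosomal subunit, had 7.92 and 8.01. Zfp638, a nuclear protein that silences unintegrated retroviral DNA, went from 7.89 to 7.61. Among members with known roles outside silencing, Zfp598, the ubiquitin ligase that marks collided ribosomes, had 5.91 and 5.69. Zfp106, an RNA-binding protein needed by motor neurons and muscle, had 7.65 and 7.66, and Zfp148, a binder of GC-rich promoters, had 7.05 and 7.19. Both sets lay on both sides of 0.

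Among members with a known part in silencing, Zfp809, which represses retroviruses through the site where their reverse transcription begins, went from 4.91 to 4.53 (-0.38). Zfp445, which guards genomic imprints, had 6.77 and 6.73, with 55.0% of genes of like mean more negative, and its partner in that task, Zfp57, lay below the limit with 3.03 and 2.87. None of these passed 1.5-fold. Zfp318, which B cells need to make IgD, had 5.05 and 4.87, Zfp281 5.17 and 4.92, Zfp384 5.05 and 4.95, Zfp292 6.76 and 6.63, Zfp553 6.27 and 5.87, Zfp831 7.61 and 7.29, Zfp1 5.22 and 4.88, and Zfp942 4.35 and 4.33. Of the other genes on the list of known roles, Zfp341, Zfp217, Zfp608, Zfp462, Zfp326, Zfp105, Zfp46 and Zfp944 were measured below the limit, and among them Zfp944 had the largest difference (3.58 and 2.80).

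Genes just inside and just outside the limit all had negative differences, and all were above 4 with fucose and below 4 without. Just inside it lay Zfp866 (4.13 and 3.88), Zfp101 (a difference of -0.35) and Zfp51 (4.30 and 3.79), and just outside it Zfp189 (4.19 and 3.74), Zfp668 (4.15 and 3.77) and Zfp938 (4.02 and 3.86). The exclusion of symbols beginning with Zfp36 removed the RNA-decay factors Zfp36 (-0.02), Zfp36l1 (-0.04) and Zfp36l2 (-0.00), and with them Zfp362 (-0.61), Zfp367 (0.86) and Zfp369 (-0.35), which only share the first letters. Zfp367, at 3.67 with fucose and 4.52 without, would have been the single gene at least 1.5-fold higher. It is known as a cell cycle gene. The 19 listed cell cycle genes that were measured summed to 1229 with fucose and 2392 without. Whether the value of Zfp367 is linked to theirs was not tested.

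Members were unevenly placed in the genome. Chromosome 7 held 23, chromosome 17 held 14, and chromosomes 8 and 13 held 9 each (RefSeq, GRCm38.p6, in which all 112 were found). The median difference was -0.38 on chromosome 7, where 6 genes were at least 1.5-fold lower, and -0.53 on chromosome 13, where 3 were. Chromosome 9 had the same median as chromosome 7 (-0.38 over 7 members, 6 of them negative) but none past 1.5-fold, and the 2 members each on chromosomes 4 and 3 had medians of -0.66 and -0.34. The medians of other genes were -0.05 over 468 on chromosome 7 and -0.06 over 243 on chromosome 13. Of these other genes, 4.06% and 3.70% were at least 1.5-fold lower. The median of the 80 members outside chromosomes 7 and 13 was -0.19. The only member on the X chromosome, Zfp280c, had 4.88 and 4.93.

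Runs of neighbours were formed where the next measured Zfp gene started within 1000000 bases. The 39 members in runs with at least 3 members had a median of -0.35, with 10 genes (25.6%) at least 1.5-fold lower. The 73 others had -0.21, with 6 genes (8.22%), and a higher median level (5.17 against 4.69). Of all genes past the limit, 4.72% were at least 1.5-fold lower. The run on chromosome 7 with Zfp84, Zfp566 and Zfp146 had a median of -0.69, and all 3 were negative. In the run with Zfp553, Zfp747, Zfp688 and Zfp646, also on chromosome 7, all 4 were negative with a median of -0.51, and the 9 other genes between them had -0.21. The run on chromosome 6 (Zfp398, Zfp282, Zfp777 and Zfp746) stayed between -0.01 and 0.04, so not every run was low.

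In the run on chromosome 13, 5 of 6 members were negative. Zfp874a, Zfp748, Zfp729b, Zfp429 and Zfp729a had -0.97, -0.67, -0.64, -0.58 and -0.50. Zfp712, at its edge, had 5.35 and 5.68. Zfp429 was just short of the 1.5-fold limit. The other 13 measured Zfp genes of the run lay below the mean of 4, with a median of -0.09. Probe sets that name 2 genes of this run were outside the choice of members and give further values. The one for Zfp595 and Zfp953 went from 5.07 to 3.43 (-1.65), the one for Zfp953 and Zfp456 from 6.51 to 5.59 (-0.93), and the one for Zfp87 and Zfp58 from 6.16 to 5.66 (-0.50). Another in this region, for Gm10324 and Zfp640, lay below the mean of 4 with 2.43 and 2.53 (0.10). Genes of such a run resemble each other, so a probe set can also take up RNA of a neighbour, and the values of Zfp729a and Zfp729b or of Zfp955b cannot be assigned with certainty.

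**Figure D3:**
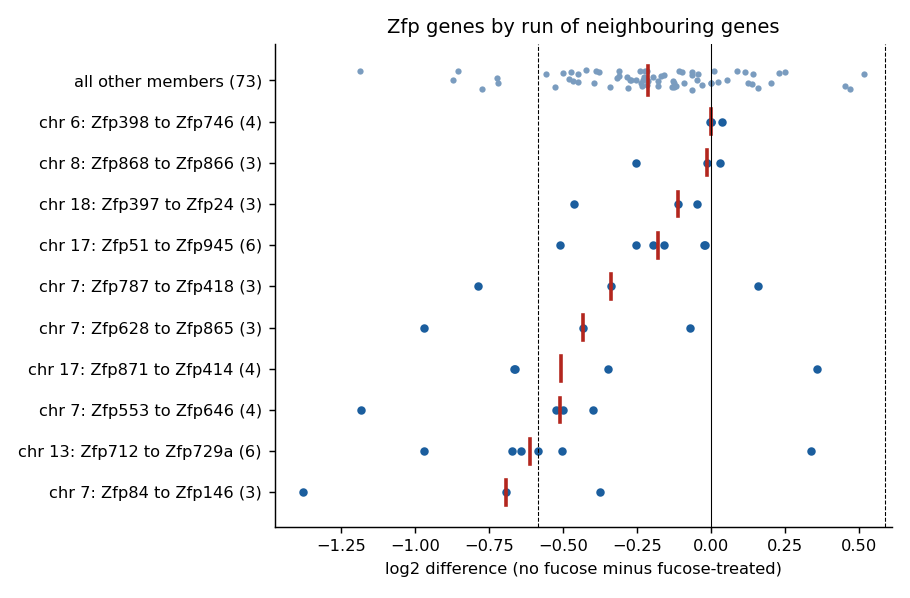
Log2 difference (x axis) of each Zfp gene in the 10 runs of neighbours with at least 3 members, named by chromosome and by first and last member, and of the 73 other members (top); red lines mark medians and dashed lines 1.5-fold. The runs of Zfp84 (-0.69) and of chromosome 13 (-0.61) have the lowest medians and that of chromosome 6 lies at 0.00; centring on T cell genes adds 0.29 to every value.

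Over the whole array, 44 probe sets named a Zfp gene together with another gene. Of the 24 past the limit, 19 had negative differences, 3 were at least 1.5-fold lower and none higher, with a median of -0.25. Among all genes past the limit these shares were 60.9%, 4.72% and 4.92%. Some of these probe sets hold the same genes and are not independent. Further probe sets existed for 8 members. The second one of Zfp319 gave 4.90 and 4.10 (-0.80), close to -0.77 on the first. For Zfp526 the first gave -0.27 and the second -0.80 (6.56 and 5.76). Zfp330 had 0.02, -0.03 and, on the third, dimmer one, -0.88. The further probe sets of Zfp106, Zfp39, Zfp507, Zfp597 and Zfp706 had mean values below 3 and could show little.

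Of the 112 members, 93 had a promoter in the RefSeq table, which gives 250 bases before and 50 after the start (the first listed start of each gene). Their promoters were less rich in CG dinucleotides than those of other expressed genes, with a median of 16 per 300 bases against 22 for 5486 other genes past the limit and 7 over all 27025 promoters. The 15 promoters of members at least 1.5-fold lower had a median of 14. The median GC content was 57.0% for members and 61.7% for the other expressed genes.

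The stretch printed above was noticed in the promoters of Zfp84 and Zfp729a and then counted, so its count is a description. Both genes are among the members with a match, and Zfp84 had the largest difference of all members. The differences with and without a match are therefore not independent of how the stretch was found. GGGNNNTGTAGT on either strand was found in 14 of 93 member promoters (15.1%), in 5.65% of promoters of other genes past the limit, in 20.5% of those of 205 Zfp genes below the limit and in 2.28% of all promoters. Its letters are those of the Zfp84 promoter with 3 left open, and they resemble the site read by Zfp143 and Thap11; Zfp143 had no probe set of its own. The 14 members with a match had a median difference of -0.54, 13 of them negative and 6 at least 1.5-fold lower. The 79 without one had -0.18, with 9 at least 1.5-fold lower. Of other genes past the limit, 4.19% with a match and 4.48% without were at least 1.5-fold lower. For Zfp genes below the limit these shares were 4.76% and 3.68%. Beside the genes shown, Zfp418 (-0.79), Zfp566 (-0.69), Zfp146 (-0.38), Zfp1 (-0.34), Zfp954 (-0.34), Zfp949 (-0.28) and Zfp180 (-0.22) held it. Of the 14 matches, 12 began within 100 bases before the start, and 4 lay on the opposite strand (Zfp358, Zfp418, Zfp566 and Zfp954).

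Chromosome 13 held 5 of the 14 members with a match, with a median of -0.58, beside -0.39 for the 3 without. On other chromosomes 9 members with a match had a median of -0.38, all 9 negative and 4 at least 1.5-fold lower. The 76 without had -0.18, with 9 at least 1.5-fold lower, beside 4.72% of all genes past the limit. Among other expressed genes the stretch went with no such shift, since 310 with a match had a median of -0.07 and 5176 without had -0.07. Among the Zfp genes below the limit the medians were -0.16 for 42 with a match and -0.08 for 163 without. Of 3 general promoter motifs, members with a match had the less negative median but, for 2 of them, more often a negative difference. CCGGAAG, the core of ETS factor sites, was in 20 member promoters (21.5%; 22.5% of other expressed genes and 9.12% of all promoters), and those members had a median of -0.13 with 70.0% negative, against -0.24 and 80.8% without it. CACGTG, the E box, was in 8 (8.60%; 11.2% of other expressed genes and 7.24% of all), with a median of -0.18 and 8 of 8 negative against -0.22 and 76.5%. ATGGCGG, the core of the YY1 site, was in 10 (10.8%, as in other expressed genes; 4.19% of all), with -0.19 and 9 of 10 negative against -0.22 and 77.1%. Among Zfp genes below the limit, ETS matches went with -0.14 against -0.08 and YY1 matches with -0.18 against -0.09, shifts like that of the stretch there. All were searched on both strands and separately, so matches may overlap.

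**Figure D4:**
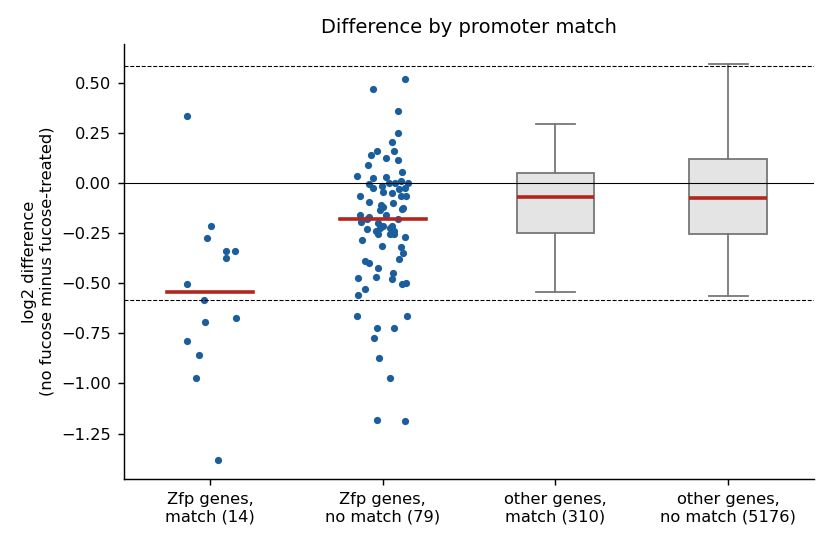
Log2 difference (y axis) of Zfp genes with and without a match to the stretch in the promoter (points), and of other expressed genes with and without it (boxes from the lower to the upper quartile, whiskers from the 5th to the 95th percentile); red lines mark medians. The 14 Zfp genes with a match, among them Zfp84 from which its letters were taken, have a median of -0.54 and the 79 without -0.18. Both groups of other genes have -0.07. Centring on T cell genes adds 0.29 to every value.

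The promoters of the chromosome 13 run were only partly alike. Over 300 bases the 5 promoters had pairwise identities from 49.2% to 61.6% (10 pairs, median 54.5%), against a median of 49.6% over 4268 other pairs of member promoters. The closest pair was Zfp729a and Zfp748. Both hold GGGAAGTGTAGT in the windows printed above, whereas Zfp84, Zfp874a and Zfp712 hold GGGAAATGTAGT.

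Partners of KRAB proteins in silencing had a median difference close to that of the Zfp genes, with single genes on both sides. Of 22 listed genes of the corepressor complex and heterochromatin, 20 were measured and past the limit, with a median of -0.20, 13 of them negative. Trim28 had 8.44 and 8.45, and Setdb1 went from 5.07 to 5.45. Trim33, a relative of Trim28, was the only 1 at least 1.5-fold lower (5.89 and 5.28), and Uhrf1, which maintains DNA methylation in dividing cells, the only 1 higher (4.33 and 5.76). Over all genes past the limit, 4.72% were lower and 4.92% higher by that fold. Smarcad1, a remodeller that works with Trim28, went from 4.51 to 3.99. Of the 5 measured genes of histone methyltransferases and the HUSH silencing complex, none was 1.5-fold apart, with a median of -0.11 and -0.44 for Tasor.

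Other zinc finger families had medians between those of the Zfp genes and 0. The 15 Zbtb factors past the limit had a median of -0.18, 11 of them negative, with none at least 1.5-fold lower and Zbtb10 (0.81) and Zbtb21 (0.75) higher. The 8 Zkscan and Zscan factors, close relatives of the KRAB zinc finger genes, had -0.04, with 4 negative and Zscan29 at -0.53. The 15 genes of CCCH zinc finger proteins, which bind RNA, had -0.13, with Zc3h12d (-0.65) and Rc3h1 (-0.60) at least 1.5-fold lower. The 14 palmitoyltransferases of the DHHC type, which share only the zinc in their name, had -0.20, with 1 at least 1.5-fold lower. The 8 housekeeping genes had a median of -0.01 and lay between -0.23 and 0.16. The counts of these lists stand beside 4.72% of all genes past the limit at least 1.5-fold lower and 4.92% higher. None of these lists was tested against the Zfp genes, and a median near -0.20 was also seen where the gene product is an enzyme.

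**Figure D5:**
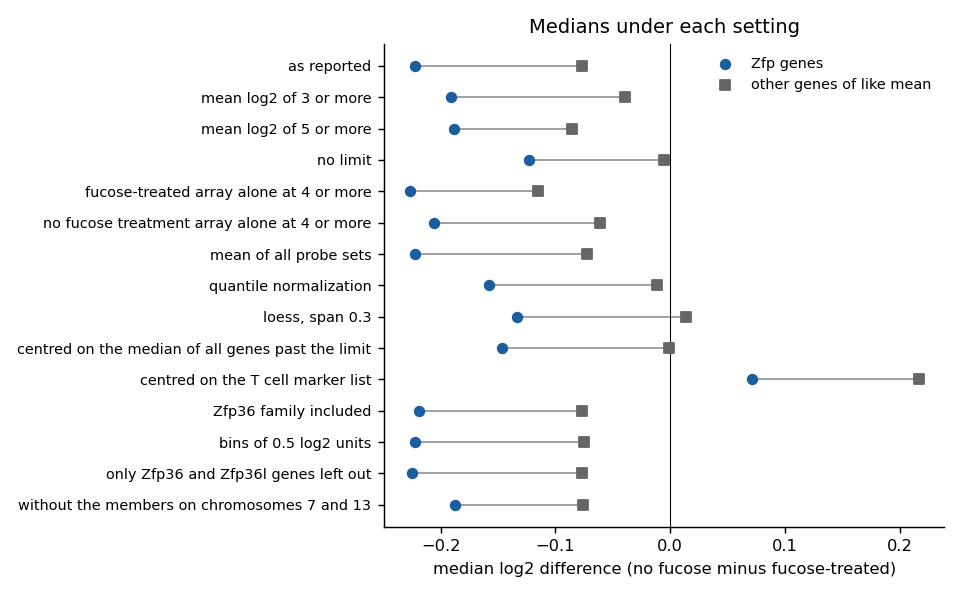
Median log2 difference (x axis) of the Zfp genes (circles) and of other genes of like mean (squares) under each of 15 settings. The circle lies left of the square by 0.10 to 0.15, and right of 0 only with centring on T cell markers (0.071). The 2 centrings move all genes alike and keep the gap as reported by construction. Quantile normalisation and loess shift genes of like intensity nearly alike and could change it little.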

How the data were processed

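Per the labels, 9 ng of RNA of each sample was hybridised to an Affymetrix whole-transcript array, 1 array per group. The deposited values are linear intensities per probe set that the authors summarised and normalised with RMA, per the submitters' processing notes; version and genome build are not given in the sources used here. They ran on the log2 scale from 1.45 to 13.22, and log2 was taken of each here. Of 41345 probe sets, 23521 had 1 platform symbol, 1814 several and 16010 were not listed. No difference has a test or an error, because each group has 1 array. Members, lists and limits were chosen with earlier results of these data known. Genes were named as the 15 most negative, 10 most positive and 5 brightest members, those at least 2-fold apart, 3 on each side of the limit, a set with known roles and, of other lists, up to 3 genes; the genes on shared and further probe sets, those with a promoter match, the members of described runs and those with equal values were named after their values were seen. Protein features were planned and are not analysed here. Alternatives were other limits on intensity, fold and bins, the mean of probe sets, quantile normalisation, loess (span 0.3), centring on the median or on T cell markers, and other choices of symbols. Python 3.11.15, pandas 2.3.3 and statsmodels 0.14.6 were used, and the summaries were tested on simulated data.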

Additional observations from a re-analysis of the deposited data

How the results depend on the processing

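No paired analysis was possible because both groups hold a single array, and leaving out an array would leave nothing to compare. Main values were a median of -0.22, 78.6% of genes negative, 16 genes at least 1.5-fold lower and 0 higher. Below, a percentage in brackets after a count of Zfp genes lower or higher is the share of other genes under the same setting. With the limit on the array without fucose alone, they were -0.21, 76.9%, 14 (3.75%) and 0 (6.68%). Without an intensity limit they were -0.12, 66.8%, 25 (2.20%) and 3 (3.24%). Loess gave a median of -0.13, 67.0% negative and 1 gene higher (6.18%). Centring on the median of all genes gave -0.15, 67.9% and 1 (5.84%). Quantile normalisation gave 69.6% negative, with the same 16 genes lower (3.11%). Centring on T cell markers turned the median to 0.071, with 38.4% negative, 5 lower (0.836% of other genes) and 5 higher (12.04% of other genes). A limit of 3 gave 2 higher (6.18%), and a limit of 5 gave 8 lower (3.93%). At 2-fold 3 were lower (0.601%). With a fold limit looser than 1.5-fold, 40 were lower (18.47%) and 5 higher (10.69%). Including the Zfp36 symbols, or leaving out only Zfp36 and Zfp36l genes, gave 1 higher, Zfp367 (4.99% either way). Without the members on chromosomes 7 and 13, 7 were lower among 80 genes (4.56% of other genes). The last 2 choices of members were made after seeing the data. Fewer genes can pass at higher limits, and centring subtracts 1 value from each difference; for the remaining changes the cause was not tested. The alternative limited to proteins with a finger was not run. Low signal over background limits the dim genes.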
